A study of Mus musculus with 18 samples.

Results

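Across 18 mouse livers, 7 genes of haem and copper handling were followed: Hp, Hpx, Cp, Cd163, Hmox1, Blvrb and Alas1. They were chosen by symbol, and all 7 were among the 24394 symbols used and among the 11218 genes that passed the filter on low counts. Libraries covered the 3′ ends of polyadenylated RNA, and the livers fell into 3 groups of 6. The first group, Stat3-deleted below, is the one with genotype Alb-Cre+/+ STAT3f/f and a tumour, the second is tumour-bearing wild type (WT) and the third is control WT. Albumin-driven Cre acts in hepatocytes, so Stat3 should be left intact in Kupffer cells, which was not checked here. The tumour line, PDA.69, is a pancreatic ductal adenocarcinoma line derived from KPC mice and described as low in T cells. The labels list the line for the control livers as well, and they give no implantation site, time, sex, age or strain. The groups analysed here hold no tumour-free Stat3-deleted livers and no livers with Alb-Cre alone.

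Free haemoglobin and haem are toxic, and the liver secretes the proteins that clear them. Haptoglobin, encoded by Hp, binds haemoglobin, and the complex is taken up by macrophages through the receptor CD163. Haemopexin, encoded by Hpx, binds haem that has left its protein. Ceruloplasmin, encoded by Cp, carries most copper in plasma and oxidises iron for loading onto transferrin. Inside cells, haem oxygenase 1 (Hmox1) opens the haem ring to give biliverdin, iron and carbon monoxide. Biliverdin reductase B (Blvrb) reduces flavins and some forms of biliverdin. Alas1 encodes the enzyme of the first step of haem synthesis in the liver, and haem represses it. Hp, Hpx and Cp are known as acute-phase genes of hepatocytes, which IL-6 family cytokines raise through STAT3 and C/EBP factors.

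On mm10 (RefSeq positions on GRCm38.p6) Hp lies on chromosome 8 from 109575128 to 109579172 and Hmox1 on the same chromosome from 75093618 to 75100593. Hpx lies on chromosome 7 from 105591611 to 105600116 and Blvrb on chromosome 7 from 27447978 to 27465981. Cp lies on chromosome 3 from 19956933 to 20009750, Cd163 on chromosome 6 from 124304636 to 124330529 and Alas1 on chromosome 9 from 106233455 to 106247954. None of the 7 shares chromosome 11 with Stat3. In GENCODE M21 the Cp gene overlaps Hps3, and Alas1 overlaps a non-coding transcript, both on the other strand. No source used here states whether counting kept strand, and tags of these partners cannot be told apart from those of Cp and Alas1.

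The bases before the start sites are shown for Hpx and Cp, which passed the test in both tumour comparisons. Also shown is the Alas1 window that held the single match to the STAT motif. RefSeq start-site windows (GRCm38.p6) covered 5 of the 7 genes. Hp and Hmox1 had no window, so neither was searched for motifs. Each line gives the 250 bases before a start site, 5′ to 3′ on the gene's strand, with motif matches in capitals. The Hpx window is chr7:105600117-105600366 on the minus strand. The Cp windows are chr3:19956804-19957053 and chr3:19956999-19957248 on the plus strand, and the Alas1 window shown is chr9:106247955-106248204 on the minus strand. A second Alas1 window, chr9:106247731-106247980, held no match to any motif searched and is not shown.
Hpx: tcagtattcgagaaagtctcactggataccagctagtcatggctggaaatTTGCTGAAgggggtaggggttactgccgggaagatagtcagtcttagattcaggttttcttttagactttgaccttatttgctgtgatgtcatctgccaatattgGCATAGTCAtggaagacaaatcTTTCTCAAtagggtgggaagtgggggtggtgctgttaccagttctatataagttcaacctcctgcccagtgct
Cp, first window: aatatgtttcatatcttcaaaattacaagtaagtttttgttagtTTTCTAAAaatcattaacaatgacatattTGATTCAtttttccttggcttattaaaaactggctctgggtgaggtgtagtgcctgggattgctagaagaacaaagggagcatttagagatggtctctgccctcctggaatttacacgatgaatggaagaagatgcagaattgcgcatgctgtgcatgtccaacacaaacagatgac
Cp, second window: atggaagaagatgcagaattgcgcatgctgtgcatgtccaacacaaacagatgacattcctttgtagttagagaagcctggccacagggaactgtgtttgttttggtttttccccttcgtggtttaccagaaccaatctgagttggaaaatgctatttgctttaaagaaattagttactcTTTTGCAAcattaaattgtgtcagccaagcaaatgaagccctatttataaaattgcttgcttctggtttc
Alas1: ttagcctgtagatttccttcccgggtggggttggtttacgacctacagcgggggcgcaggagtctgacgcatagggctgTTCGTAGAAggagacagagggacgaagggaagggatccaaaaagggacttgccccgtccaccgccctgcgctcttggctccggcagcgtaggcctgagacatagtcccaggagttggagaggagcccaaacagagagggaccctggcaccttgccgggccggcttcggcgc
Searched on both strands were the STAT motif TTCNNNGAA, the C/EBP core TTNNGNAA, the antioxidant element TGACNNNGC bound by NRF2 and BACH1, and the AP-1 motif TGANTCA, with N any base. The Hpx window held C/EBP cores that began 200 and 73 bases before the start site and an antioxidant element that began 95 bases before it. The first Cp window held a C/EBP core beginning 206 bases and an AP-1 motif beginning 177 bases before the start, and the second a C/EBP core beginning 70 bases before its start. The capitals in the Alas1 window are the STAT motif, 171 bases before the start. No window of Hpx, Cp, Blvrb or Cd163 held the STAT letters. Of 32851 start-site windows of this length, 7.02% held the STAT motif, 36.8% the C/EBP core, 10.2% the antioxidant element and 6.75% the AP-1 motif, so a C/EBP core by itself is common.

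Stat3-deleted libraries held 7222882 to 9545442 counts, tumour-bearing WT libraries 6168658 to 8850200 and control libraries 5212265 to 7159148. Levels are CPM, counts scaled to a common library size with TMM factors. Alb, which defines hepatocytes, was between 18562 and 67771 CPM in every liver. The Stat3 tag ranged over 99.4 to 132 CPM in Stat3-deleted livers, over 163 to 264 CPM in tumour-bearing WT livers and over 93.6 to 148 CPM in control livers, which is no check of the deletion, since a 3′ tag need not lie in the floxed part. The replicates are numbered livers, the labels do not say more about their source, and p-values measure the spread between these livers.

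Hp, Hpx, Cp and Cd163 rose in tumour-bearing WT livers against control WT livers, and Hp, Hpx and Cp fell in Stat3-deleted tumour-bearing livers against tumour-bearing WT livers. In Stat3-deleted against control WT livers only Blvrb rose among the 7. In counts, 4 of 7 members rose and 0 fell in the first comparison, where 2.25% of all 11218 tested genes were called, 1.76% higher and 0.49% lower (edgeR quasi-likelihood test, Benjamini-Hochberg adjusted p under 0.05). In the second, 0 rose and 3 fell, against 6.12% of all genes called, 2.89% higher and 3.23% lower. In the third, 1 rose and 0 fell, against 4.85%, 2.19% higher and 2.66% lower. The median log2 fold change of the 7 was 0.80, −0.51 and 0.22 in the 3 comparisons in that order, while all tested genes had medians of 0.0038, −0.034 and −0.0087. Scaling by library totals without TMM moved these medians of all genes to −0.19, 0.034 and −0.13. The share of calls that were higher was then 39.4%, 61.1% and 27.2%, against 78.2%, 47.2% and 45.2% with TMM. Each group enters 2 of the 3 comparisons, so the comparisons share livers and are not independent of each other. The members called under that scaling numbered 4, 3 and 0. At an unadjusted p under 0.05 the members numbered 6, 4 and 2. Among all 11218 genes, an unadjusted edgeR p of 0.0555 ranked 1927 in the first comparison. In the second an edgeR p of 0.0441 ranked 2055, and in the third 0.0225 ranked 1593. DESeq2 and limma voom each called 4, 3 and 2 members. Of all genes DESeq2 called 309 higher and 153 lower, 441 and 456, and 396 and 464 in the 3 comparisons. Limma voom called 176 and 70, 575 and 522, and 607 and 711. Counts of these kinds in the lists below are to be read beside these numbers.

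**Figure D1:**
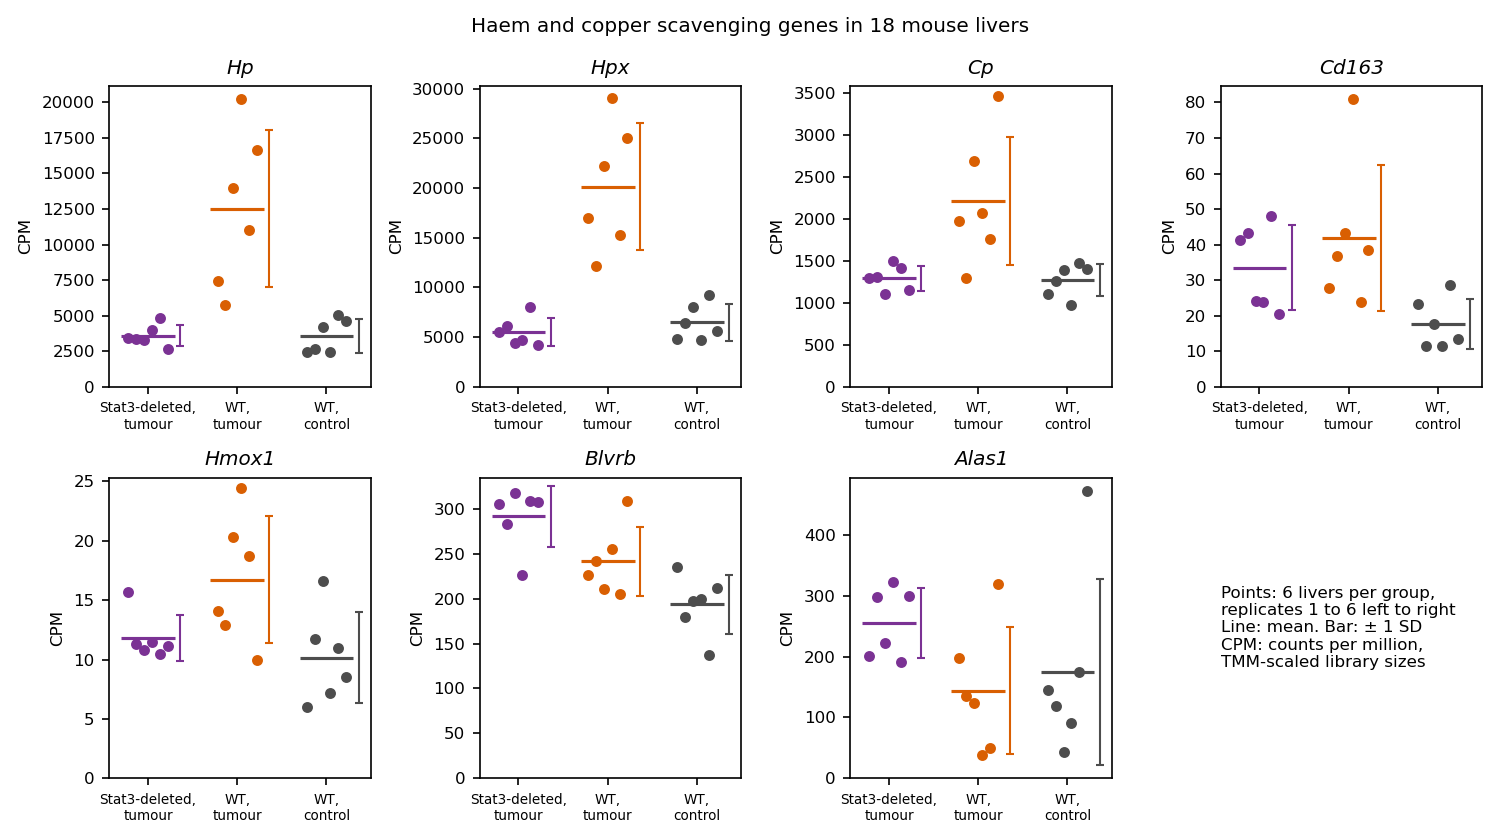
Level of each of the 7 genes in CPM (vertical axis, from 0) in Stat3-deleted tumour-bearing, tumour-bearing WT and control WT livers, 6 points per group, with the mean as a line and 1 SD as a bar. Tumour-bearing WT livers stand above both other groups for Hp and Hpx with no overlap, and the groups overlap for the other 5 genes.

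The plasma scavengers of haemoglobin and haem showed the widest separation of groups. Hp was at 5746, 12497 and 20254 CPM (lowest, median, highest) in tumour-bearing WT livers, against 2441, 3423 and 5062 CPM in control livers. Every tumour-bearing WT liver was above every control liver. The means were 12513 ± 5518 CPM and 3581 ± 1198 CPM (SD, n = 6 each), a 3.49-fold difference (log2 fold change 1.81, SE 0.27, edgeR adjusted p = 0.000314).

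In Stat3-deleted livers Hp was at 2669.8, 3388 and 4851 CPM (lowest, median, highest), with a mean of 3595 ± 739.9 CPM (SD, n = 6). All 6 were below every tumour-bearing WT liver, and their range lay inside that of the control livers. The log2 fold change of Stat3-deleted over tumour-bearing WT livers was −1.80 (SE 0.27, edgeR adjusted p = 0.000176). Over control livers it was 0.0059, with a 95% interval of −0.54 to 0.55 (edgeR adjusted p = 0.995).

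Hpx was at 12152, 19588 and 29006.5 CPM (lowest, median, highest) in tumour-bearing WT livers, against 4658, 6043 and 9277 CPM in control livers, and these ranges did not meet. The means were 20109.5 ± 6391 CPM and 6481 ± 1853 CPM (SD, n = 6 each), a log2 fold change of 1.63 (SE 0.23, edgeR adjusted p = 0.00017). Hpx tags made up 1.85% ± 0.454 of all counts in tumour-bearing WT and 0.695% ± 0.189 in control livers (SD, n = 6 each). By mean CPM, Hpx ranked 4 of 11218 genes in tumour-bearing WT livers, against 12 in control livers.

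Hpx in Stat3-deleted livers was at 4232, 5116 and 8039 CPM (lowest, median, highest), with a mean of 5504 ± 1422 CPM (SD, n = 6). The highest of these was below the lowest tumour-bearing WT liver. Its log2 fold change over tumour-bearing WT livers was −1.87 (SE 0.23, edgeR adjusted p = 2.09e-05). Over control livers it was −0.24, with an interval of −0.71 to 0.23 (edgeR adjusted p = 0.601).

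Hp and Hpx were the members, 2 of 7, whose CPM ranges did not overlap in either of the first comparisons. Of all tested genes, 1.52% had separate ranges in tumour-bearing WT against control livers (1.05% higher, 0.464% lower) and 3.3% in Stat3-deleted against tumour-bearing WT livers (1.4% higher, 1.9% lower). In the third comparison 0 of 7 members had separate ranges, against 3.82% of all genes (1.98% higher, 1.84% lower). Marker RNA of neutrophils, which also store haptoglobin, moved in the same direction. The 8 markers present in the table summed to 35.1 to 103 CPM in Stat3-deleted, 68.8 to 345 CPM in tumour-bearing WT and 20.04 to 50.8 CPM in control livers. None of the 8 was at 0 throughout a group. In tumour-bearing WT livers S100a8 and S100a9 averaged 90.2 and 79.3 CPM, Retnlg 5.68 CPM and each of the rest 2.46 CPM or less. The 3 that were tested, S100a8, S100a9 and Retnlg, rose in tumour-bearing WT over control livers and fell in Stat3-deleted over tumour-bearing WT livers. Their part in the Hp difference was not tested. Hepatocyte markers, 8 of 8 measured, summed to 96855 to 112211 CPM in Stat3-deleted, 60854 to 132153 CPM in tumour-bearing WT and 54193 to 85387 CPM in control livers, and of these Ttr alone rose with edgeR in Stat3-deleted over tumour-bearing WT and over control livers, where limma voom called 2 and 5 of the 8 and DESeq2 1 and 3. The Ttr call over control livers was lost without control replicate 1 or 4 or Stat3-deleted replicate 3 or 5, and that over tumour-bearing WT livers in a fit of those 2 groups alone (adjusted p = 0.052). In whole liver, fewer cells of a type and less RNA per cell cannot be told apart.

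**Figure D2:**
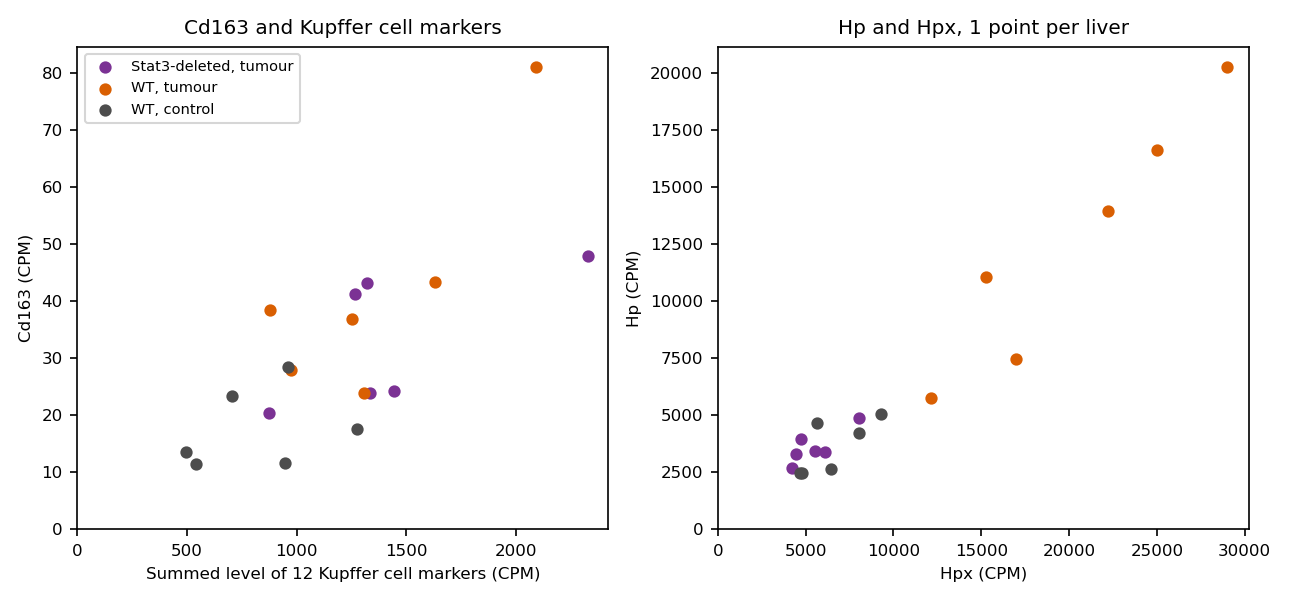
Left, Cd163 (CPM) against the summed CPM of 12 Kupffer cell markers, and right, Hp against Hpx (CPM), 1 point per liver, coloured by group. Tumour-bearing WT livers run from 5746 to 20254 CPM of Hp while the other groups stay at or below 5062 CPM, and the groups overlap on the Kupffer marker axis.

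Among tumour-bearing WT livers Hp varied 3.52-fold and Hpx 2.39-fold between the lowest and highest liver, replicate 2 and replicate 4 for both genes. The number of Hp tags per Hpx tag ran from 0.555 to 0.839 in Stat3-deleted livers, 0.44 to 0.722 in tumour-bearing WT livers and 0.409 to 0.825 in control livers, and these ranges overlapped. Profiles most like that of Hp were sought among 6405 genes whose mean was 10 CPM or more, by the root-mean-square difference of centred log2 CPM over the 18 libraries. Nearest were Hpx (0.29), Itih4 (0.30) and Fga (0.35), against a spread of Hp itself of 0.94. For Hpx they were Itih4 (0.27), Hp (0.29) and Fgg (0.34), against its own spread of 0.90. Itih4 encodes an inter-alpha-trypsin inhibitor chain, and Fga and Fgg encode fibrinogen chains.

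Cp, the copper-carrying ferroxidase, differed in the same directions but less. It was at 1292, 2022 and 3455 CPM (lowest, median, highest) in tumour-bearing WT livers, against 976, 1326 and 1476 CPM in control livers. The lowest tumour-bearing WT liver lay within the control range, and all 6 were above the control mean. The means were 2206 ± 761 CPM and 1269 ± 195 CPM (SD, n = 6 each), a log2 fold change of 0.80 (SE 0.19, edgeR adjusted p = 0.0227). This call was lost without control replicate 1 (edgeR adjusted p = 0.0604) or 4 (0.0666), without tumour-bearing WT replicate 3 (0.0701) or 6 (0.0521), in a fit of the 2 WT groups alone (0.0872), and with the run of label numbers, described at the end, as a block in them (log2 fold change 0.78, 0.0907).

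Cp in Stat3-deleted livers was at 1099, 1299.6 and 1491 CPM (lowest, median, highest), with a mean of 1293 ± 149.9 CPM (SD, n = 6). Its range overlapped with the tumour-bearing WT range only at the lowest liver of that group. The log2 fold change over tumour-bearing WT livers was −0.77 (SE 0.19, edgeR adjusted p = 0.0135), with all 6 livers below the tumour-bearing WT mean, and no left-out library ended this call. Over control livers it was 0.027, with an interval of −0.36 to 0.41 (edgeR adjusted p = 0.956). The profiles most like Cp were those of Kng1 (root-mean-square difference 0.19 on the log2 scale), Vtn (0.20) and Kng2 (0.20), against 0.45 for the spread of Cp. These encode kininogens and vitronectin, and Kng1 and Kng2 are close copies of each other between which tags may be divided unequally.

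**Figure D3:**
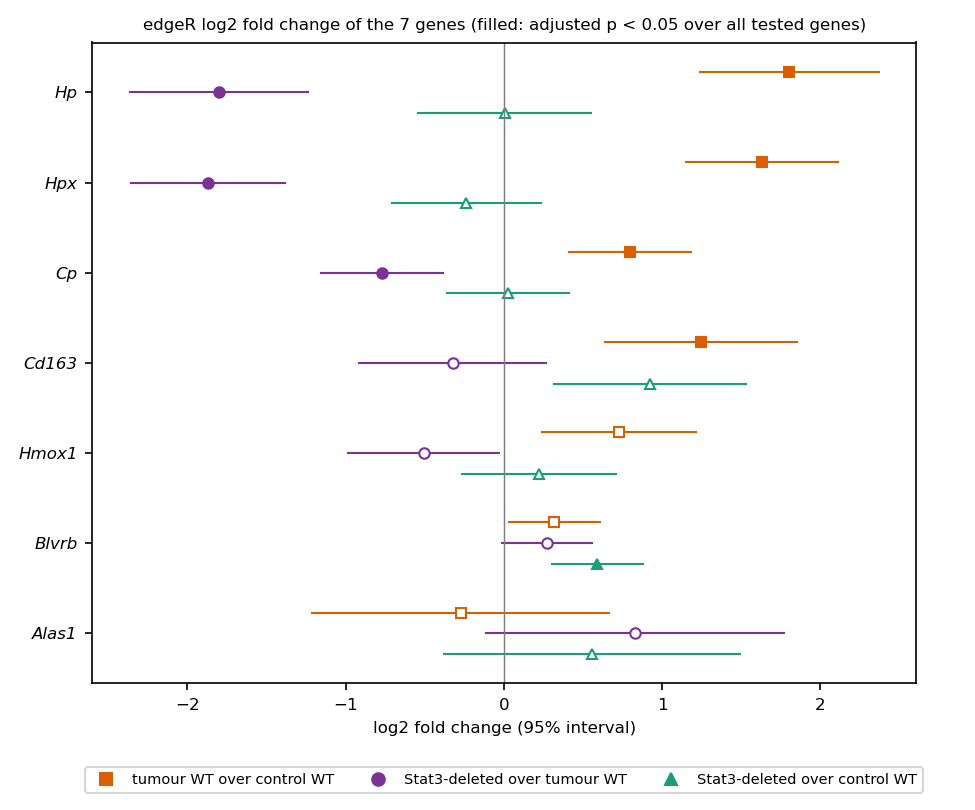
edgeR log2 fold change (horizontal axis) with its 95% interval for each gene in the 3 comparisons, filled where the adjusted p over all tested genes is under 0.05. Hp, Hpx and Cp lie to the right of 0 in tumour-bearing WT over control and to the left in Stat3-deleted over tumour-bearing WT, and their Stat3-deleted over control intervals include 0.

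Cd163, the macrophage receptor for haptoglobin-haemoglobin, was at 23.8, 37.7 and 81.1 CPM (lowest, median, highest) in tumour-bearing WT livers, against 11.4, 15.6 and 28.5 CPM in control livers. The ranges overlapped, with replicate 4 far above the other tumour-bearing WT livers. The means were 41.9 ± 20.5 CPM and 17.7 ± 7.0004 CPM (SD, n = 6 each), a log2 fold change of 1.25 (SE 0.29, edgeR adjusted p = 0.0237), with 6 of 6 livers above the control mean. The call was lost without control replicate 2 (edgeR adjusted p = 0.0554), 4 (0.0665) or 6 (0.0657), and without tumour-bearing WT replicate 3 (0.055) or 4 (0.0946), and with the run of label numbers as a block in the WT groups (log2 fold change 1.23, 0.0565).

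Cd163 in Stat3-deleted livers was at 20.4, 32.8 and 48.0 CPM (lowest, median, highest), with a mean of 33.5 ± 11.96 CPM (SD, n = 6). Over tumour-bearing WT livers its log2 fold change was −0.32, with an interval of −0.91 to 0.27 (edgeR adjusted p = 0.574). Over control livers it was 0.92 (SE 0.29, edgeR adjusted p = 0.0694), with 6 of 6 livers above the control mean. That value missed the threshold here and passed it in DESeq2 (adjusted p = 0.029), in limma voom (0.0135) and in edgeR on the 2 groups alone (0.0382).

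Kupffer cells are the liver macrophages in which Cd163 is normally found. Their 12 markers, all in the table and none at 0 throughout a group, summed to 875 to 2331 CPM in Stat3-deleted, 877 to 2094 CPM in tumour-bearing WT and 496 to 1274 CPM in control livers, with overlapping ranges. Of the 12, 2 rose in tumour-bearing WT over control livers (Clec1b and Vsig4), 0 passed in Stat3-deleted over tumour-bearing WT livers (0 at an unadjusted p under 0.05, and 0 with DESeq2 or limma voom), and 3 rose in Stat3-deleted over control livers (C1qc, Vsig4 and Cd5l), beside 2.25%, 6.12% and 4.85% of all genes called. At an unadjusted p under 0.05, 9 of the 12 were higher in tumour-bearing WT over control livers. DESeq2 called 4 there and limma voom 3. At the same unadjusted threshold 9 were higher in Stat3-deleted over control livers, where DESeq2 called 5 and limma voom 8. The shares above are of edgeR adjusted calls and do not apply to these counts. Of all genes in tumour-bearing WT over control livers, DESeq2 called 309 higher and 153 lower, and limma voom 176 and 70. In Stat3-deleted over control livers DESeq2 called 396 and 464, and limma voom 607 and 711. There an unadjusted edgeR p of 0.0225 ranked 1593 of 11218 genes. The Vsig4 call in tumour-bearing WT over control livers was lost without control replicate 1, 4 or 6 or tumour-bearing WT replicate 3 or 4, and with library totals in place of TMM (adjusted p = 0.0682), and no left-out library ended that of Clec1b. Each of the 3 calls in Stat3-deleted over control livers was lost without control replicate 4 or Stat3-deleted replicate 2 or 5, those of Vsig4 and Cd5l also without control replicate 1 or 6 or Stat3-deleted replicate 3, and that of Cd5l also without control replicate 5. Library totals in place of TMM ended all 3 (adjusted p = 0.0792 for C1qc, 0.057 for Vsig4 and 0.074 for Cd5l). Markers of monocytes and recruited macrophages, 11 in the table, summed to 43.1 to 82.2 CPM in Stat3-deleted, 45.0 to 123 CPM in tumour-bearing WT and 27.4 to 72.1 CPM in control livers. Of the 9 tested, Trem2 rose in tumour-bearing WT over control livers (log2 fold change 2.55, edgeR adjusted p = 0.0278), with 5 of 9 higher at an unadjusted p under 0.05, 3 called by DESeq2 and 0 by limma voom. The Trem2 call rested on only 0 to 8 counts per control library and 3 to 37 counts per tumour-bearing WT library. It was lost without control replicate 1, 4, 5 or 6 or tumour-bearing WT replicate 3, 4 or 6. Spp1 fell in Stat3-deleted over tumour-bearing WT livers (−2.06, edgeR adjusted p = 0.00139), and no left-out library ended that call. Cd68 rose in Stat3-deleted over control livers (1.14, edgeR adjusted p = 0.0287), a call lost without control replicate 1, 4, 5 or 6 or Stat3-deleted replicate 3 or 5, and with library totals (0.0735). The part of these cells in the Cd163 levels was tested only for the Kupffer markers, as follows.

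Taken relative to the mean log2 CPM of the 12 Kupffer markers, Cd163 differed by 0.44 in tumour-bearing WT minus control livers (−0.92 ± 0.46 and −1.37 ± 0.61, SD, n = 6 each; exact two-sided permutation test over 924 splits, p = 0.186, adjusted over the 3 comparisons 0.38). The difference was −0.30 in Stat3-deleted minus tumour-bearing WT livers (exact permutation p = 0.253, adjusted 0.38) and 0.14 in Stat3-deleted minus control livers (exact permutation p = 0.634). A difference of Cd163 beyond that of the Kupffer markers was thus not detectable with 6 livers a group. Among markers of other cell types, Sox9 was the 1 gene called of 6 tested for bile duct and tumour epithelium. It rose in tumour-bearing WT over control livers (1.31, edgeR adjusted p = 0.00276), where 2.25% of all genes were called. Within the lower run of label numbers it was 0.72 (edgeR adjusted p = 0.628), and within the higher run 1.79 (0.0223). It fell in Stat3-deleted over tumour-bearing WT livers (−1.35, edgeR adjusted p = 0.000883), where 6.12% were called. Of 6 tested genes of liver endothelial cells, 2 rose in Stat3-deleted over control livers, where 4.85% of all genes were called. These were Clec4g and Stab2 (0.69 and 0.70, edgeR adjusted p = 0.0212 and 0.0287), both calls lost without control replicate 4 or Stat3-deleted replicate 2 or 5. The Stab2 call was also lost without control replicate 2 or 6 or Stat3-deleted replicate 3, and that of Clec4g with library totals (adjusted p = 0.0724). Of 6 tested stellate cell genes 0 passed with edgeR in any comparison. DESeq2 and limma voom each called 1 of them, Col3a1, in Stat3-deleted over control livers. Nearest to the Cd163 profile were Fcgr3 (root-mean-square difference 0.39 on the log2 scale), Enho (0.39) and Ccl6 (0.40), against 0.73 for its own spread. Fcgr3 encodes an Fc receptor of myeloid cells and Ccl6 a chemokine.

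Hmox1, the inducible haem-degrading enzyme, rested on 42 to 186 counts per library. It was at 9.99, 16.4 and 24.4 CPM (lowest, median, highest) in tumour-bearing WT livers, against 6.04, 9.73 and 16.6 CPM in control livers. The means were 16.7 ± 5.35 CPM and 10.2 ± 3.82 CPM (SD, n = 6 each), a log2 fold change of 0.73 with an interval of 0.24 to 1.21 that did not pass over all genes (unadjusted p = 0.00504, edgeR adjusted p = 0.109). Stat3-deleted livers were at 10.4, 11.2 and 15.7 CPM, a log2 fold change of −0.51 over tumour-bearing WT (edgeR adjusted p = 0.224) and of 0.22 over control livers (0.645). The tumour-bearing WT livers with the highest Hmox1, replicates 4 and 3, held 24.4 and 20.3 CPM, and replicate 6, the second highest for Hp and Hpx, held the lowest.

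Blvrb stood apart from the plasma scavengers in its order of groups, highest in Stat3-deleted livers. It was at 227, 307 and 317 CPM (lowest, median, highest) in Stat3-deleted, 205, 234 and 309 CPM in tumour-bearing WT and 138, 199 and 235 CPM in control livers. Neighbouring groups overlapped. The means were 292 ± 33.8 CPM in Stat3-deleted and 193 ± 32.8 CPM in control livers (SD, n = 6 each), a log2 fold change of 0.59 (SE 0.14, edgeR adjusted p = 0.0173) with 6 of 6 livers above the control mean. Scaled by library totals without TMM the value was 0.47 and missed the threshold (adjusted p = 0.0536). Stat3-deleted over tumour-bearing WT livers gave 0.27 (interval −0.01 to 0.56, edgeR adjusted p = 0.284), and tumour-bearing WT over control livers gave 0.32 (interval 0.03 to 0.61, edgeR adjusted p = 0.25). Nearest in profile were Psma2 (root-mean-square difference 0.16), Prkar1a (0.18) and Psmb4 (0.18), against 0.32 for Blvrb itself. Psma2 and Psmb4 encode proteasome subunits, and Prkar1a a regulatory subunit of protein kinase A.

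Alas1 varied widely between livers in the WT groups and less in the Stat3-deleted group. It was at 191, 260.3 and 323 CPM (lowest, median, highest) in Stat3-deleted, 39.1, 129 and 319 CPM in tumour-bearing WT and 42.5, 132 and 472 CPM in control livers. The highest liver held 8.16 times the lowest in tumour-bearing WT, 11.1 times in control and 1.70 times in Stat3-deleted livers. Its log2 fold change was 0.83 in Stat3-deleted over tumour-bearing WT livers (SE 0.45, interval −0.11 to 1.77, edgeR adjusted p = 0.327). It was 0.56 in Stat3-deleted over control livers (edgeR adjusted p = 0.519). In tumour-bearing WT over control livers it was −0.27 (edgeR adjusted p = 0.82), and without control replicate 6 it was 0.33. The tumour-bearing WT liver with the most Hp and Hpx, replicate 4, held the least Alas1. Replicate 6 of that group, the second highest for Hp and Hpx, held the most, at 319 CPM.

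Of 49 other haem, copper and iron genes in the table, 46 were tested. In tumour-bearing WT over control livers 1 rose and 0 fell (2.17%, beside 2.25% of all genes), with a median log2 fold change of −0.02. In Stat3-deleted over tumour-bearing WT livers 3 rose and 1 fell (8.7%, beside 6.12% of all genes), with a median of 0.10. In Stat3-deleted over control livers 1 rose and 1 fell (4.35%, beside 4.85% of all genes), with a median of 0.08. These shares lie near those of all genes.

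**Figure D4:**
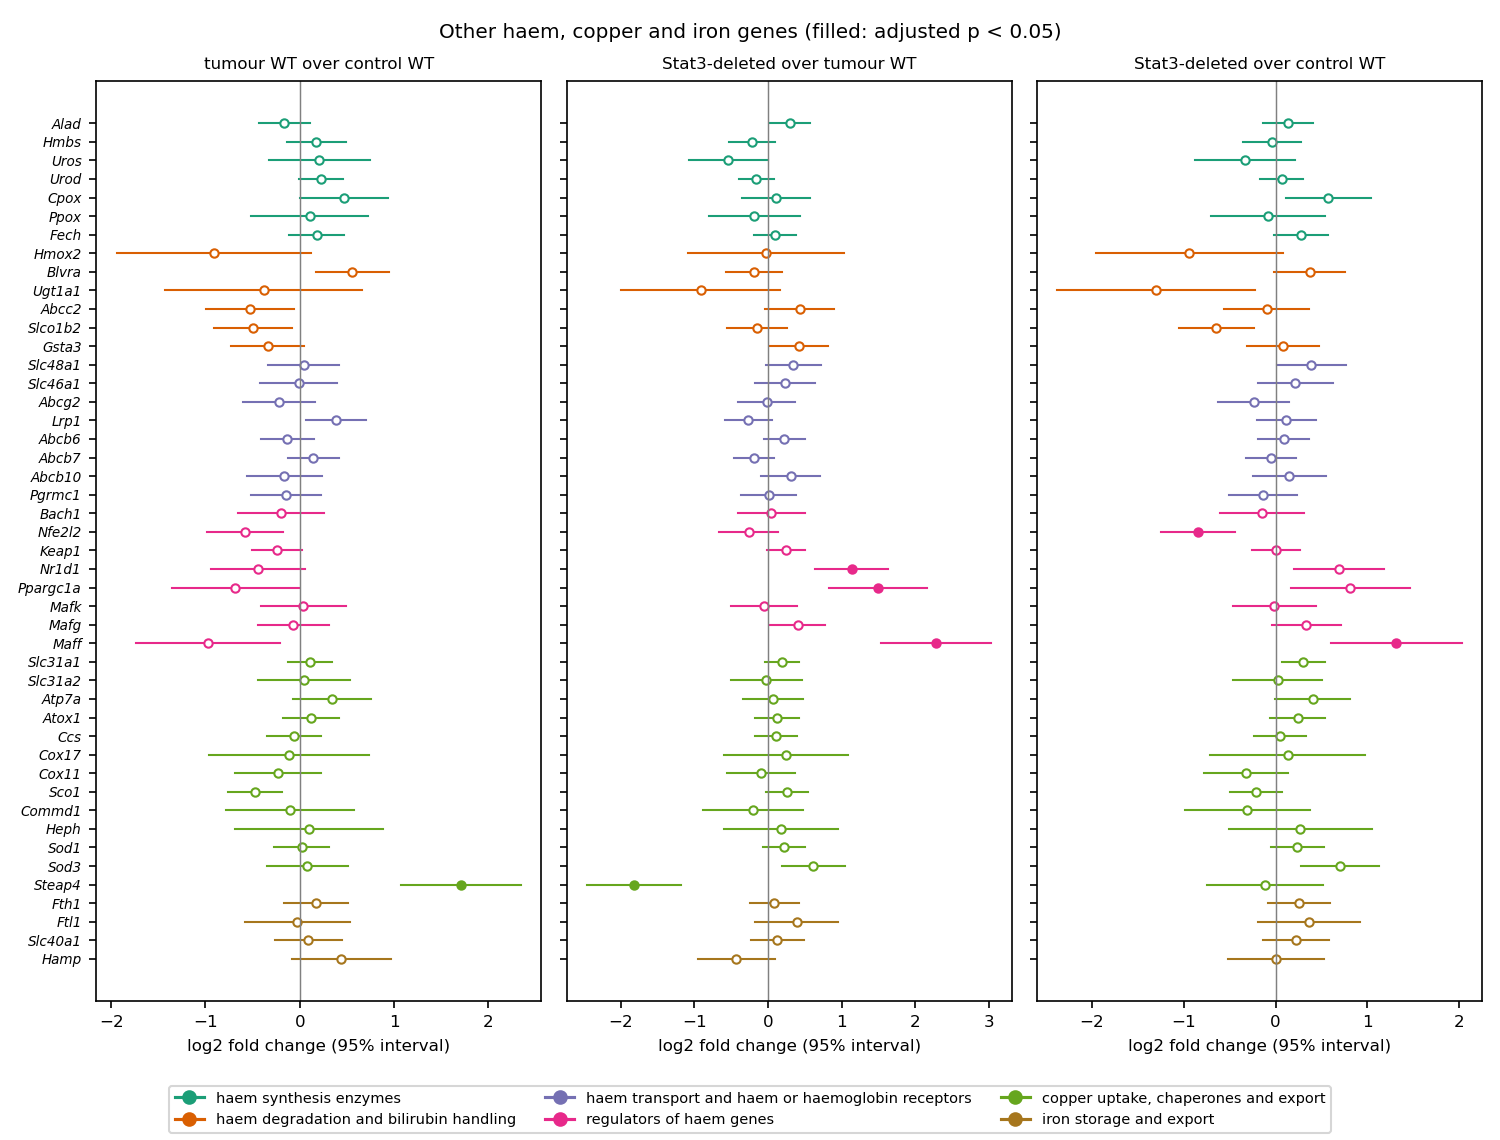
edgeR log2 fold change (horizontal axes) with 95% intervals for 46 other genes of haem, copper and iron handling, coloured by list, in the 3 comparisons; filled points have an adjusted p under 0.05. Steap4 is the filled point among the copper genes, and the other filled points are regulators of haem genes.

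The single copper gene called was Steap4, a membrane reductase of iron and copper. It was at 35.2, 66.7 and 163 CPM (lowest, median, highest) in tumour-bearing WT livers, against 18.7, 29.9 and 33.1 CPM in control livers, with no overlap. Its log2 fold change was 1.71 (SE 0.31, edgeR adjusted p = 0.00247). In Stat3-deleted livers it was at 18.2, 24.1 and 37.3 CPM, and fell by 1.82 on the log2 scale against tumour-bearing WT livers (SE 0.31, edgeR adjusted p = 0.000594), with 6 of 6 livers below the tumour-bearing WT mean. With edgeR the other 12 copper genes tested, among them the copper importer Slc31a1 and the chaperones Atox1 and Ccs, did not pass in any of the 3 comparisons, and the smallest adjusted p was 0.0527 (edgeR), for the extracellular superoxide dismutase Sod3 in Stat3-deleted over control livers. DESeq2 called Sod3 there, and limma voom called Sod3 and Slc31a1. Sco1, a copper chaperone of cytochrome oxidase, was called by DESeq2 in tumour-bearing WT over control livers, and Sod3 by limma voom in Stat3-deleted over tumour-bearing WT livers.

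Of 7 haem synthesis enzymes after the Alas1 step, 0 passed in any comparison with edgeR, DESeq2 or limma voom, and 1, 2 and 1 had an unadjusted p under 0.05 in the 3 comparisons in the order above. The smallest adjusted p was that of Cpox, coproporphyrinogen oxidase, at 280 ± 94.3 CPM in Stat3-deleted and 188 ± 51.4 CPM in control livers (SD, n = 6 each; log2 fold change 0.57, edgeR adjusted p = 0.14). Of 6 genes of haem degradation and bilirubin handling 0 passed with edgeR, with 3, 1 and 2 at an unadjusted p under 0.05. Blvra, the other biliverdin reductase, was at 28.7 ± 8.44 CPM in tumour-bearing WT and 19.5 ± 2.14 CPM in control livers (log2 fold change 0.56, edgeR adjusted p = 0.123). Slco1b2, an organic anion uptake carrier that takes up bilirubin, averaged 1535 ± 348 CPM in Stat3-deleted and 2399 ± 496 CPM in control livers (log2 fold change −0.64, edgeR adjusted p = 0.063). In that comparison DESeq2 called Slco1b2, and limma voom called it and Ugt1a1, the enzyme that conjugates bilirubin. Of 8 haem transport genes and receptors 0 passed with any of these tools (1, 0 and 1 at an unadjusted p under 0.05), including Lrp1, the haemopexin receptor, with a log2 fold change of 0.39 in tumour-bearing WT over control livers (edgeR adjusted p = 0.212). Of 4 genes of iron storage and export 0 passed with any tool and 0 had an unadjusted p under 0.05, with Hamp, which encodes hepcidin, at a log2 fold change of 0.44 in that comparison (edgeR adjusted p = 0.407).

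Of 8 tested regulators of haem genes 0 passed in tumour-bearing WT over control livers with any tool (3 at an unadjusted p under 0.05, all lower), and 3 rose in Stat3-deleted over tumour-bearing WT livers. Ppargc1a, the coactivator PGC-1α that raises Alas1 in fasting, was at 9.55, 18.5 and 42.3 CPM (lowest, median, highest) in Stat3-deleted, against 4.35, 5.50 and 15.1 CPM in tumour-bearing WT livers (log2 fold change 1.498, SE 0.32, edgeR adjusted p = 0.00596). Nr1d1, a clock repressor that binds haem, rose by 1.14 (SE 0.24, edgeR adjusted p = 0.00509). Maff, a small MAF protein that pairs with NRF2 or BACH1 at antioxidant elements, rose by 2.28 (SE 0.36, edgeR adjusted p = 0.000311). For each of the 3, 6 of 6 Stat3-deleted livers were above the tumour-bearing WT mean, while the ranges of the groups overlapped. Limma voom also called Mafg, another small MAF protein. The tumour-bearing WT mean lay below the control mean for Ppargc1a (7.73 against 12.3 CPM), Nr1d1 (18.3 against 24.8 CPM) and Maff (3.36 against 6.56 CPM). In Stat3-deleted over control livers edgeR called Maff but not Ppargc1a or Nr1d1.

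Against control livers Maff had a log2 fold change of 1.31 (SE 0.34, edgeR adjusted p = 0.0293), with 5 of 6 livers above the control mean. That call was lost without control replicate 1 (edgeR adjusted p = 0.0581), 3 (0.0638), 4 (0.0765) or 6 (0.0629), or Stat3-deleted replicate 2 (0.0771), 3 (0.0599) or 5 (0.0741), and with library totals alone (0.0633). Nfe2l2, which encodes NRF2, an inducer of Hmox1, fell to 55.6 ± 9.73 CPM in Stat3-deleted livers, against 99.7 ± 22.9 CPM in control livers (SD, n = 6 each; log2 fold change −0.84, SE 0.19, edgeR adjusted p = 0.0161), with 6 of 6 livers below the control mean. Tumour-bearing WT livers held 66.7 ± 20.6 CPM (SD, n = 6), with a range of 45.1 to 97.3 CPM that overlapped the Stat3-deleted range. With edgeR Nfe2l2 passed in neither comparison with tumour-bearing WT livers. Limma voom called Nr1d1 as well in that comparison (edgeR adjusted p = 0.0912). Bach1, a haem-binding repressor of Hmox1, had log2 fold changes between −0.20 and 0.05 in the 3 comparisons and passed in none.

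**Figure D5:**
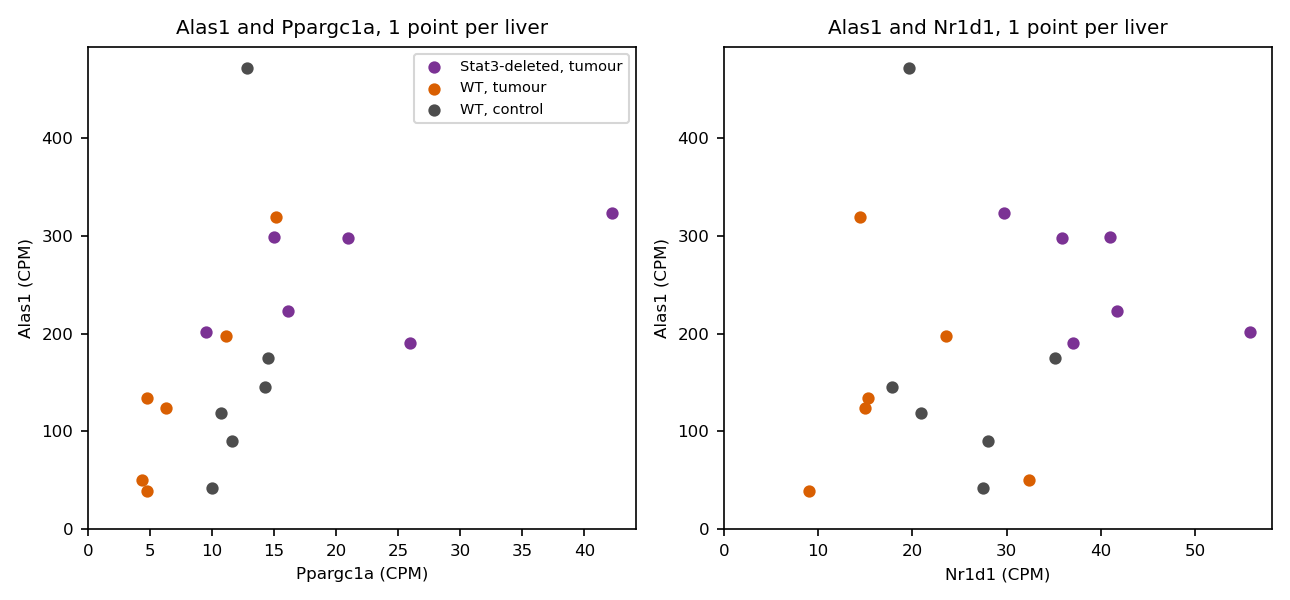
Alas1 (CPM, vertical axes) against Ppargc1a (left) and Nr1d1 (right) in CPM, 1 point per liver, coloured by group. Alas1 stands highest, at 472 CPM, in control replicate 6, and Stat3-deleted livers hold 191 to 323 CPM of Alas1.

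Red cell RNA could be read only in part. The globin genes Hba-a1, Hba-a2, Hbb-bs and Hbb-bt, near-identical in pairs, were listed at 0 in every library, while Alas2, the haem synthesis gene of red cell precursors, was at 89.4 to 138 CPM in Stat3-deleted, 55.8 to 149 CPM in tumour-bearing WT and 93.0 to 149.8 CPM in control livers. Alas2 passed in none of the 3 comparisons (edgeR adjusted p = 0.313 to 0.995). The part of blood content in the levels of haem genes was not tested.

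Each label also carries a number whose meaning is not stated, and among WT livers these form a lower run (replicates 1 to 3) and a higher run (replicates 4 to 6). All Stat3-deleted livers carry lower numbers, so a difference tied to the run cannot be told apart from genotype there. Within the lower and the higher run, 3 livers against 3, tumour-bearing WT over control gave log2 fold changes of 1.54 and 1.97 for Hp (edgeR adjusted p = 0.0787 and 0.0661), 1.40 and 1.82 for Hpx (0.0446 and 0.0897), 0.66 and 0.91 for Cp (0.499 and 0.264) and 1.03 and 1.42 for Cd163 (0.182 and 0.209). Each kept its direction in both runs, and Hpx in the lower run alone passed the test.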

How the data were processed

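The authors deposited raw counts for 24421 symbols in 18 libraries. Per the labels' protocols the livers were kept in TRIzol, RNA came from RNeasy Mini columns and libraries from the Lexogen Quantseq 3′ FWD kit. Per the submitters' processing notes STAR and mm10 were used. Not stated there are the STAR version, the counter, the annotation, any filter and the strand setting. Columns were matched to samples by label number. Symbols turned into date numbers (27; 0.103 to 0.166% of counts) were left out.

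With edgeR 4.0.16 in R 4.3.3, TMM factors and filterByExpr (11218 genes kept) preceded a quasi-likelihood fit of all 18 libraries, 1 coefficient per group (15 residual degrees of freedom, common biological coefficient of variation 0.281). Tests are two-sided, adjusted by Benjamini-Hochberg over all tested genes, with a threshold of 0.05. CPM use TMM-scaled library sizes, and log2 CPM a prior count of 2. Intervals are 95% intervals of the fit. Alternatives were DESeq2 1.42.0, limma 3.58.1 (voom), other scalings, filters, blocks and left-out libraries; fits within label-number runs were added after seeing the data. The procedure was tested on simulated data. The members and lists were chosen with earlier results of these data known. The text names the 7 members, Stat3, up to 4 genes of smallest adjusted p per list, called markers, and the 3 genes nearest in profile to each called member (predicted genes left out). Flvcr1, Flvcr2 and Tf were not analysed here, and Nr1i3, Atp7b and Sco2 did not pass the filter. Genes called by other tools, and Bach1, Atox1 and Ccs, were named after their values were seen. Python 3.11.15 with pandas 2.3.3 and matplotlib 3.10.9 made tables and plots.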

Additional observations from a re-analysis of the deposited data

Results flagged for a closer look

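In each group of 6, the gap between the highest or lowest liver and its nearest neighbour was compared with the group's range. Of 21 groups (7 genes in 3 groups), 4 held a liver farther off than Dixon's 95% critical value allows, and chance marks about 1 group in 20. Hmox1 was at 15.7 CPM in Stat3-deleted replicate 1, a gap of 0.8 of the range. Blvrb was at 227 CPM in Stat3-deleted replicate 4, below the others by 0.627 of the range. Cd163 was at 81.1 CPM in tumour-bearing WT replicate 4, the liver with the most Hp, Hpx and Hmox1 in its group, a gap of 0.659. Alas1 was at 472 CPM in control replicate 6, a gap of 0.691.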

How the results depend on the processing

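In Stat3-deleted over tumour-bearing WT livers the falls of Hp, Hpx and Cp were called under all 8 other settings and without each of 18 libraries. In tumour-bearing WT over control livers Hp was called in 9 and Hpx in 10 of 11 other settings, and both without each of 18 libraries; the settings that lost them were fits within 1 run of label numbers. The 4 members called there became 2, Hp and Hpx, with the run as a block (126 genes), 1 within the lower run (38 genes) and 0 within the higher run (50 genes); there the 252 genes became 462 in DESeq2 and 128 with the 2 groups alone. Limma voom called 1097 genes in the second comparison, against 686, and 1318 in the third, against 544. In the third DESeq2 called 860 genes and the 2 groups alone 894, each with 2 members, as did limma voom, and library totals 0 members. The causes of these shifts were not tested, other than that within a run there were fewer livers. Leaving out 1 library gave 132 to 462 genes and 2 to 5 members in the first comparison (132 without tumour-bearing WT replicate 3, 139 without 4 and 462 without 1; 163 without control replicate 4, 159 without 6), 469 to 906 genes and 3 members in the second, and 258 to 783 genes and 1 to 2 members in the third (342, 295 and 361 without control replicates 1, 4 and 5; 272, 279 and 258 without Stat3-deleted replicates 2, 3 and 5). In the first comparison, 2 members were called without tumour-bearing WT replicate 3, and 2 without control replicate 4. Near-zero values changed sign: in Stat3-deleted over control livers Hp was −0.11 and Cp −0.089 with library totals, and −0.10 to 0.13 and −0.051 to 0.075 with 1 library left out. Alas1 in tumour-bearing WT over control livers was 0.56 within the lower run and −0.69 to 0.33 with 1 library left out. Cd163 relative to Kupffer markers ran from 0.29 to 0.57, −0.43 to −0.18 and −0.014 to 0.26 in the 3 comparisons with 1 library left out. Hmox1 passed in tumour-bearing WT over control livers without control replicate 3 (adjusted p = 0.0413). Deviations of same-numbered livers correlated over 0.1 in 1, 2 and 1 of 6 pairs, with the own number best in 1, 1 and 0 of 6. The highest correlation was 0.309, for replicate 5 in the first comparison. In the WT groups, same-numbered livers carry consecutive label numbers except replicate 5 (25502 in control and 25498 in tumour-bearing livers). Whether same-numbered livers were paired by design was not tested. With the replicate block 219, 710 and 570 genes and 4, 3 and 1 members were called. Cd163 relative to Kupffer markers then had adjusted p of 0.516, 0.516 and 0.719, and Trem2 in the first comparison 0.06. Among the members, Hmox1 and Cd163 rest on the fewest counts, and small differences in them were not detectable.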
